A study of Mus musculus with 16 samples.

Results

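The 9 genes described here encode components and receptors of complement: C1qa, C1qb, C1qc, C4b, C3, Cfb, Cfp, C3ar1 and C5ar1. They were chosen by name, with earlier results of these data known, and all 9 were found among the 50600 genes of the deposited count table. Complement is a set of plasma and tissue proteins that tag microbes, dying cells and, in the brain, synapses for removal. C1q, whose chains are encoded by C1qa, C1qb and C1qc, starts the classical route when it binds a target, and this leads to cleavage of C4 (C4b) and then of C3, the protein on which all routes meet. The alternative route keeps itself going through factor B (Cfb) and properdin (Cfp). The small fragments C3a and C5a are read by receptors on myeloid cells, which C3ar1 and C5ar1 encode. In the brain, microglia are known as a main source of C1q.

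The study compared sorted cells from male mice aged 13 to 14 weeks by poly(A) RNA sequencing, with 4 libraries in each of 4 groups. Brain CD11c cells were eYFP+ cells from the ischemic (ipsilateral) hemisphere of Tg(Itgax-Venus)1Mnz mice, in which the Itgax promoter, which serves the gene for CD11c, drives the fluorescent protein. Spleen CD11c cells came from spleens of the same line, and the labels give no disease state for them. Ischemic microglia were CX3CR1+ cells from the ischemic hemisphere of CX3CR1CreERT2:Rosa26-tdT mice, in which the Cx3cr1 gene drives a drug-inducible Cre that turns on tdTomato. Control microglia came from control brains of that line. Brain cells were sorted on the reporter alone, without antibody staining. Every comparison of CD11c cells with microglia is therefore also a comparison of 2 mouse lines, and population and line cannot be told apart. The labels do not give the time after ischemia. Libraries held 31569304 to 48245164 counts, and no pair of libraries of 1 group was alike within sampling noise. Nothing in the labels says how animals map to libraries beyond the titles. Those of brain CD11c replicate 1, from an ischemic hemisphere, and spleen CD11c replicate 4 share an animal number. The p-values cover only the scatter among the libraries, which may be technical.

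The libraries carried the markers of their labels, with additions. Summed over 5 microglial markers (P2ry12, Tmem119, Sall1, Siglech and Fcrls), the level was 2656 to 3305 CPM in brain CD11c libraries, 30.8 to 49.1 CPM in spleen CD11c libraries, 6907 to 10564 CPM in ischemic microglia and 12756 to 14954 CPM in control microglia. CPM here means counts per 1e6 counts of the library, after TMM scaling. Brain CD11c libraries therefore held microglial transcripts at a level between spleen CD11c cells and microglia. Spleen CD11c libraries also held 2229 to 2927 CPM of 5 B-cell markers, against 10.8 to 17.0 CPM in brain CD11c libraries, 17.0 to 18.4 CPM in ischemic microglia and 15.6 to 21.7 CPM in control microglia. Markers of border macrophages (Mrc1, Lyve1, Cd163, Pf4 and F13a1) summed to 473 to 594 CPM in ischemic and 503 to 986 CPM in control microglia. Their sums were 177 to 695 CPM in brain and 416 to 690 CPM in spleen CD11c libraries. The part of border macrophages in the levels of the members was not tested. The brain CD11c libraries fell into 2 pairs for several members, with replicates 1 and 2 apart from replicates 3 and 4. The titles of replicates 3 and 4 are bare codes, and whether this marks a batch is not stated. In bulk samples, fewer cells of a type and less RNA per cell cannot be told apart.

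In the mouse genome (GRCm38, GENCODE M21) all 9 genes are protein-coding and lie on the minus strand. The C1q genes form a cluster of 18675 bases, with C1qb at chr4:136880129-136886187, C1qc at chr4:136889804-136893065 and C1qa at chr4:136895917-136898803. C3 lies at chr17:57203970-57228136, C4b at chr17:34728380-34743882 and Cfb at chr17:34856374-34862518. C3ar1 lies at chr6:122847138-122856161, C5ar1 at chr7:16246743-16259540 and Cfp at chrX:20925454-20931555. RefSeq upstream sequence was matched for 6 of the 9 members. The 250 bases before the RefSeq transcript start (build GRCm38.p6, minus strand) are shown for 3 members with different patterns across the groups: C1qb, which ranked highest of all members, C3, which was low only in control microglia, and Cfp, which was low in both microglial groups. Each ends at the base before the start, at chr4:136886201-136886450 for C1qb, chr17:57228137-57228386 for C3 and chrX:20931556-20931805 for Cfp. Capitals mark matches on either strand to the letters of NF-kB (GGG, any 5 bases, CC), C/EBP (TTNNGNAA) or PU.1 (GAGGAA), all of them factors known in myeloid gene control.
C1qb: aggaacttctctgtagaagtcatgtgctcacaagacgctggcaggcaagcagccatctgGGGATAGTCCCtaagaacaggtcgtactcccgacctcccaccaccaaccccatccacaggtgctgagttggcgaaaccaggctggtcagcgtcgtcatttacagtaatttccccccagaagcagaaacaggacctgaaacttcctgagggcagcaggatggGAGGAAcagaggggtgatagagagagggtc
C3: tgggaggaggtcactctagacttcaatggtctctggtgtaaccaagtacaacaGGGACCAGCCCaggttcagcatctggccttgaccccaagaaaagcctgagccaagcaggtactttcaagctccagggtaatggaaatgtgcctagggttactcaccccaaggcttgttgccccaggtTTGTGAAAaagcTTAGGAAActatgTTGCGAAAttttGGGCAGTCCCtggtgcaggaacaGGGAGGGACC
Cfp: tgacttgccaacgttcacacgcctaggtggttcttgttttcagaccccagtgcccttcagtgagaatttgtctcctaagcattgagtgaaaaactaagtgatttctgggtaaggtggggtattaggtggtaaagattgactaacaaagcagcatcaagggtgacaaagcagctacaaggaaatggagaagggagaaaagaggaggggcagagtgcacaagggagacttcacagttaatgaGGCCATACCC
The C3 stretch holds 3 matches to the C/EBP letters, starting 70, 58 and 45 bases before the transcript start, and 4 to the NF-kB letters, at 197, 196, 33 and 10 bases, the first pair overlapping. At least 1 C/EBP match occurs in 36.9% of the 32851 RefSeq promoters of this length, and 3 or more in 2.61%. For NF-kB the shares are 45.8% for at least 1 match and 4.97% for 4 or more. C1qb holds 2 overlapping NF-kB matches (23.2% of promoters hold 2 or more) and 1 PU.1 match (23.3% hold at least 1). Cfp holds 1 NF-kB match. No match to the interferon response element (GAAA, any 2 bases, GAAA) or AP-1 (TGANTCA) was found in these 3 windows, where 2.98% and 6.75% of promoters hold one. These are matches of letters, not evidence of binding.

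C1q transcripts were among the most abundant of any gene in the microglia. Per kilobase of exon, C1qb ranked 10, C1qa 13 and C1qc 26 of 16318 genes in brain CD11c cells, and 83, 95 and 145 in spleen CD11c cells. The same genes ranked 3, 4 and 11 in ischemic microglia and 4, 5 and 10 in control microglia. The 3 genes together made up 0.826% ± 0.108 of all counts in brain CD11c libraries, 0.168% ± 0.0368 in spleen CD11c libraries, 1.66% ± 0.109 in ischemic microglia and 1.33% ± 0.156 in control microglia (SD, n = 4 each). C1q was thus detected at a high level in every group, spleen included.

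C1qa, the A chain, had 2984, 2911, 2100 and 2607 CPM in the 4 brain CD11c libraries and 549, 320, 380 and 520.0 CPM in the spleen CD11c libraries. It had 6161, 5979, 6078 and 5486 CPM in ischemic microglia, against 3606, 4444, 4363 and 4762 CPM in control microglia. The 4 groups did not overlap for this gene, with ischemic microglia on top and spleen CD11c cells at the bottom. C1qb, the B chain, averaged 3269 ± 649 CPM in brain CD11c cells, 532 ± 131 CPM in spleen CD11c cells, 6783 ± 204 CPM in ischemic microglia and 4839 ± 611 CPM in control microglia. C1qc, the C chain, averaged 2667 ± 418, 473 ± 107, 5868 ± 551 and 4282 ± 508 CPM in those groups in the same order. Both followed C1qa closely, in order and in size.

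The log2 fold change between brain CD11c cells and ischemic microglia was -1.16 ± 0.17 (SE) for C1qa, -1.05 ± 0.18 for C1qb and -1.14 ± 0.17 for C1qc, with edgeR adjusted p-values of 4.69e-05, 0.000211 and 5.27e-05. C1q was lower in brain CD11c libraries, at 44.7% (C1qa), 48.2% (C1qb) and 45.5% (C1qc) of the mean of ischemic microglia. The 5 microglial markers stood at 23.3% (P2ry12) to 36.8% (Fcrls) of that mean in the same libraries. The percentages for C1q were 35.4 to 57.3 across single brain CD11c libraries, and those of single markers were 17.0 to 30.9 (P2ry12), 29.0 to 38.6 (Tmem119), 17.9 to 39.9 (Sall1), 17.3 to 37.3 (Siglech) and 26.0 to 49.8 (Fcrls). Replicates 1 and 2 were above replicates 3 and 4 for all 3 C1q genes, and for Fcrls. They were below them for P2ry12, Sall1 and Siglech, and Tmem119 showed no such split. The part of microglial RNA in the C1q level of brain CD11c libraries was not tested.

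**Figure D1:**
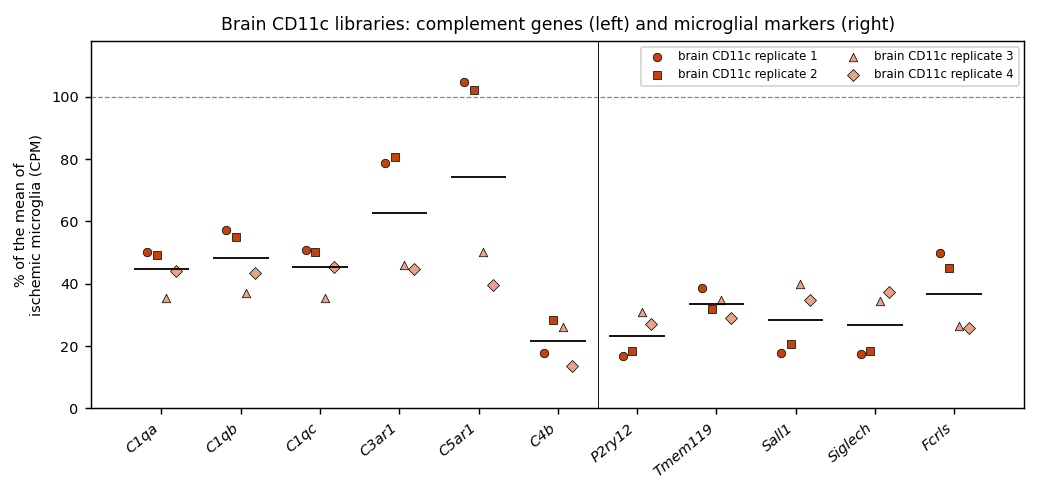
Level of 6 complement genes and 5 microglial markers in each brain CD11c library, as a percentage of the mean CPM of the 4 ischemic microglia libraries (dashed line, 100); points are libraries, lines are means. The C1q genes lie between 35.4% and 57.3%, C5ar1 lies above 100% in replicates 1 and 2, and the markers lie between 17.0% (P2ry12) and 49.8% (Fcrls), reaching into the C1q range for Tmem119, Sall1, Siglech and Fcrls.

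Ischemic microglia had more C1q than control microglia, by a log2 fold change of 0.46 ± 0.17 for C1qa, 0.49 ± 0.18 for C1qb and 0.45 ± 0.17 for C1qc. The edgeR adjusted p-values were 0.0408, 0.0435 and 0.0434. After TMM scaling no ischemic library overlapped a control library for any of the 3 genes, but the calls were near the threshold. Leaving out any 1 of the 8 libraries ended the call for C1qa and C1qb (adjusted p 0.0516 to 0.124), and C1qc stayed past the threshold only without ischemic replicate 4 (0.0464). Scaling by library totals also ended all 3 calls, with log2 fold changes of 0.32, 0.34 and 0.31. The groups then overlapped for C1qc, with 4442 CPM in ischemic replicate 4 and 4669 CPM in control replicate 4. In brain CD11c cells the 3 genes were also lower than in control microglia, with log2 fold changes of -0.70 ± 0.17, -0.57 ± 0.18 and -0.68 ± 0.17 (edgeR adjusted p = 0.00205, 0.0123 and 0.00222).

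Against spleen CD11c cells, brain CD11c cells had 5.99 times the C1qa (95% interval 4.71 to 7.64), 6.15 times the C1qb (4.75 to 7.96) and 5.64 times the C1qc (4.44 to 7.16). The edgeR adjusted p-values were 2.85e-09, 5.1e-09 and 3.79e-09, and no library of 1 group reached the other. The ratio of C1qc counts to C1qa counts was 1.01 in brain CD11c cells, 1.07 in spleen CD11c cells, 0.988 in ischemic microglia and 0.997 in control microglia (geometric means, n = 4 each). That of C1qb to C1qa was 1.23, 1.20, 1.15 and 1.13 in the same order. Groups overlapped in all 6 comparisons tested for these ratios (exact two-sided permutation tests of 4 against 4 libraries, lowest adjusted p over 9 ratio tests = 0.411), and tests of this size could hardly pass. Spleen CD11c cells, at 1.18 to 1.24 for C1qb to C1qa, did not overlap control microglia, at 1.10 to 1.16, a difference that was not tested.

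**Figure D2:**
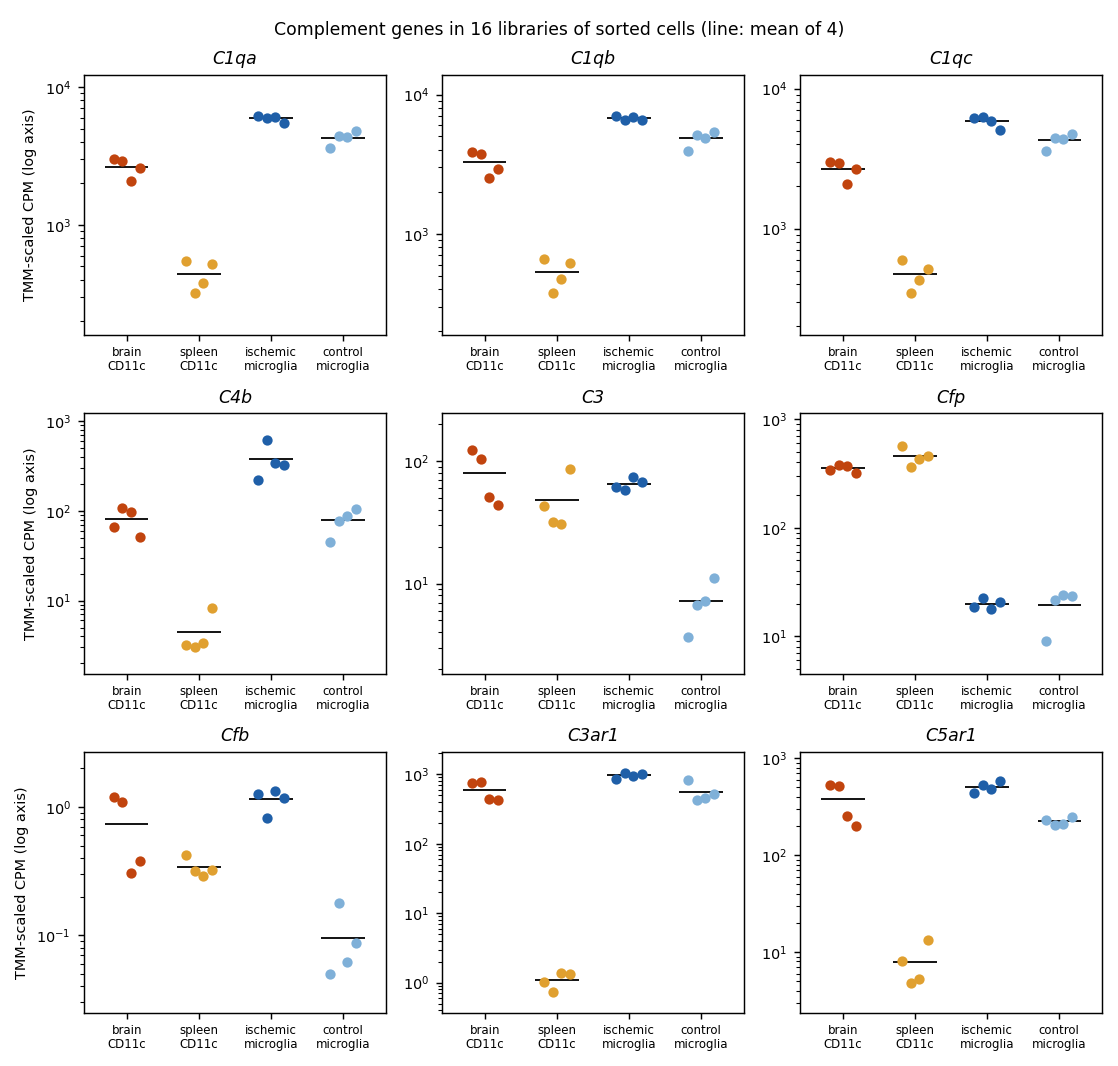
TMM-scaled CPM (log axis) of the 9 genes in each of the 16 libraries, by group; points are libraries in replicate order and lines are means of 4. C1q falls by group from ischemic microglia to spleen CD11c cells, C3 and Cfb are lowest in control microglia, Cfp is high in both CD11c groups, and C3ar1 is near 1 CPM in spleen.

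C4b, the mouse gene for complement C4 cleaved downstream of C1q, was highest in ischemic microglia. It had 66.4, 106.7, 98.3 and 51.1 CPM in brain CD11c cells, and 3.24, 3.06, 3.34 and 8.29 CPM in spleen CD11c cells. Ischemic microglia had 224, 611, 341 and 323 CPM, against 45.4, 77.9, 86.7 and 104.7 CPM in control microglia. Ischemic microglia lay above every other library, brain CD11c cells overlapped control microglia, and spleen lay below all others. The log2 fold change was 2.25 ± 0.38 between ischemic and control microglia (edgeR adjusted p = 0.000352) and -2.22 ± 0.38 between brain CD11c cells and ischemic microglia (0.00026). Brain CD11c cells did not differ detectably from control microglia (0.04, 95% interval -0.68 to 0.75), and exceeded spleen CD11c cells by 4.17 ± 0.42 (edgeR adjusted p = 4.75e-07). Ischemic replicate 2 was the highest library, and without it the change against control microglia was 1.90. Of its 50-base words, 34.6% also occur in the neighbouring gene C4a, and how reads that match both were counted is not stated. C4a averaged 0.63 to 1.66 CPM in the groups.

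The astrocyte marker Gfap moved with C4b. It averaged 6.36 ± 1.94 CPM in brain CD11c cells, 0.203 ± 0.202 CPM in spleen CD11c cells, 23.0 ± 3.48 CPM in ischemic microglia and 5.20 ± 2.25 CPM in control microglia. Of 5 astrocyte markers, 4 reached 1 CPM in ischemic microglia. The sum of all 5 was 149 to 165 CPM in ischemic microglia and 154 to 178 CPM in control microglia. It was 40.3 to 62.6 CPM in brain CD11c cells and 28.5 to 56.6 CPM in spleen CD11c cells, which overlap. Slc1a3 made up most of this sum in both microglial groups, with 129 ± 6.71 CPM in ischemic and 153 ± 12.4 CPM in control microglia. It averaged 33.2 ± 12.5 CPM in brain and 35.3 ± 9.39 CPM in spleen CD11c cells. The other markers went both ways. Aldh1l1 was higher in ischemic microglia, at 4.67 ± 0.641 against 3.09 ± 0.660 CPM. Gja1 was lower, at 2.27 ± 1.03 against 4.04 ± 0.353 CPM. Aqp4, a water channel of astrocytes, was also lower, at 0.816 ± 0.592 against 1.38 ± 0.238 CPM. The part of astrocyte RNA in the C4b level was not tested.

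C3, the central component, was low in control microglia and at similar levels in the other groups. Brain CD11c cells had 122.6, 103.5, 50.7 and 44.0 CPM, and spleen CD11c cells had 42.8, 31.7, 30.6 and 85.9 CPM. Ischemic microglia had 61.2, 58.0, 74.0 and 67.7 CPM, against 3.67, 6.63, 7.24 and 11.0 CPM in control microglia. Every ischemic library was above every control library, by 9.14-fold in the fit (95% interval 5.17 to 16.2, edgeR adjusted p = 4.9e-05). Brain CD11c cells overlapped both ischemic microglia (1.23-fold, 95% interval 0.734 to 2.06) and spleen CD11c cells (1.68-fold, 95% interval 0.999 to 2.82), with edgeR adjusted p-values of 0.579 and 0.0988.

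The brain CD11c libraries differed among themselves for C3. With replicates 1 and 2 alone the log2 difference from spleen CD11c cells was 1.25 (edgeR adjusted p = 0.0163), and with replicates 3 and 4 alone it was -0.048 (0.931). Against ischemic microglia the value with replicates 3 and 4 alone was -0.45 (edgeR adjusted p = 0.433). Spleen replicate 4 was the highest spleen library, and without it the brain to spleen difference was 1.19 (edgeR adjusted p = 0.00902). Leaving out brain replicate 4 also gave a call, at 0.95 (0.0442).

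Cfb, factor B, the protease of the alternative C3 convertase, was rare in all groups. It had 39, 39, 11 and 12 counts in brain CD11c libraries and 17, 15, 14 and 14 in spleen CD11c libraries. Ischemic microglia had 50, 31, 51 and 44 counts, against 2, 7, 3 and 3 in control microglia. In the fit it was higher in ischemic than in control microglia by 3.57 ± 0.53 on the log2 scale (edgeR adjusted p = 0.000101), with no overlap between the groups. Brain CD11c cells did not differ detectably from ischemic microglia (0.648-fold, 95% interval 0.354 to 1.19). Against spleen CD11c cells the log2 difference was 1.12 ± 0.46 (edgeR adjusted p = 0.0434) although the groups overlapped, and with brain replicates 3 and 4 alone it was -0.019. These counts may be incomplete: 79.5% of the 2825 exon bases of Cfb are shared with Gm20547, an annotated readthrough gene on the same strand that had 0 counts in all 16 libraries. How reads that fall in both genes were counted is not stated in the labels or the file.

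Cfp, properdin, which stabilises that convertase, had the opposite layout to C1q. Brain CD11c cells had 343, 381, 370.2 and 317 CPM, and spleen CD11c cells had 567, 366, 426 and 457 CPM. Ischemic microglia had 18.8, 22.4, 17.8 and 20.5 CPM, and control microglia had 9.02, 21.7, 24.1 and 23.2 CPM. Both CD11c groups lay far above both microglial groups. Brain CD11c cells had 17.8 times the level of ischemic microglia (95% interval 12.7 to 25.0, edgeR adjusted p = 3.28e-09), and no detectable difference from spleen CD11c cells (log2 -0.36, 95% interval -0.79 to 0.07). Scaled by library totals, Cfp was called lower in brain than in spleen CD11c cells, at -0.63 (edgeR adjusted p = 0.0191). Ischemic and control microglia differed by 0.03 (95% interval -0.41 to 0.46), and the sign turned to -0.12 with library totals and to -0.22 without control replicate 1.

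Like Cfp, the marker lists of dendritic cells and monocytes were higher in both CD11c groups than in both microglial groups. The 8 dendritic cell markers summed to 518 to 1324 CPM in brain CD11c libraries, 598 to 1186 CPM in spleen CD11c libraries, 14.6 to 19.1 CPM in ischemic microglia and 24.4 to 42.7 CPM in control microglia. The 4 monocyte markers summed to 984 to 1240, 512 to 584, 18.5 to 24.5 and 17.4 to 35.9 CPM in the same order. The monocyte sum was thus higher in brain than in spleen CD11c libraries, which Cfp was not. All markers of both lists reached 1 CPM in both CD11c groups. The part of the mix of cells in the Cfp level was not tested.

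C3ar1, the receptor for C3a, separated the CD11c groups by more than any other member. Brain CD11c cells had 760.1, 776, 443 and 432 CPM, and spleen CD11c cells had 1.02, 0.744, 1.36 and 1.32 CPM. Ischemic microglia had 852, 1037, 941 and 1023 CPM, against 820.2, 428, 453 and 520 CPM in control microglia. Brain CD11c cells exceeded spleen CD11c cells by 541-fold (95% interval 342 to 855, edgeR adjusted p = 1.67e-12), with the receptor near the floor in spleen. Ischemic microglia were above control microglia by 0.80 ± 0.23 (edgeR adjusted p = 0.0137), although control replicate 1 came close to the lowest ischemic library. Scaled by library totals, control replicate 1 (811 CPM) lay above ischemic replicate 1 (760 CPM). That call was lost without control replicate 2 (0.0553) or control replicate 3 (0.0521). Brain CD11c cells were below ischemic microglia by a log2 fold change of -0.68 ± 0.23 (edgeR adjusted p = 0.0291), a call that held in 3 of the 8 fits with 1 library left out. With brain replicates 1 and 2 alone it was -0.33 (0.278).

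C5ar1, the receptor for C5a, also stood low in spleen. Brain CD11c cells had 532, 520, 254 and 201 CPM, and spleen CD11c cells had 8.11, 4.76, 5.28 and 13.4 CPM. Ischemic microglia had 442, 532, 483 and 576 CPM, against 229, 205, 209.9 and 247 CPM in control microglia. Brain CD11c replicates 1 and 2 lay within the range of ischemic microglia and replicates 3 and 4 lay close to control microglia. Against spleen CD11c cells the log2 fold change was 5.58 ± 0.38 (edgeR adjusted p = 5.08e-09), and between ischemic and control microglia it was 1.19 ± 0.32 (0.00863). Between brain CD11c cells and ischemic microglia it was -0.43 (95% interval -1.05 to 0.18), with 0.050 for replicates 1 and 2 alone and -1.14 for replicates 3 and 4 alone (edgeR adjusted p = 0.928 and 0.0102).

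The receptors were also set against each other within each library. The ratio of C5ar1 counts to C3ar1 counts was 0.595 in brain CD11c cells, 6.69 in spleen CD11c cells, 0.526 in ischemic microglia and 0.415 in control microglia. Brain and spleen libraries did not overlap, nor did ischemic (0.513 to 0.563) and control libraries (0.279 to 0.480, lowest in replicate 1). Each exact two-sided permutation test gave 0.0286, the smallest p that 4 against 4 libraries allow, and neither passed after adjustment over 9 ratio tests (adjusted p = 0.129). Brain CD11c cells and ischemic microglia overlapped (exact permutation p = 0.229), and the spleen ratio rests on 35 to 66 counts of C3ar1 in a library.

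**Figure D3:**
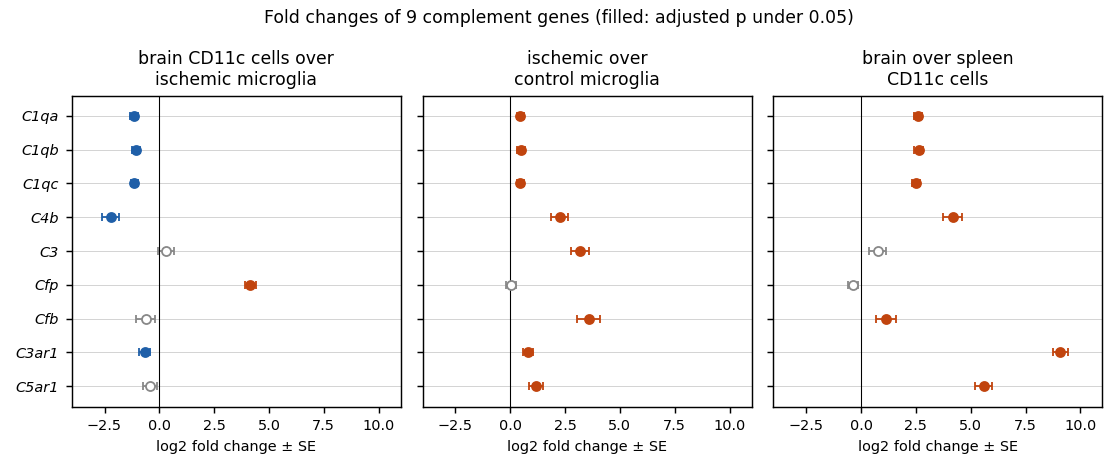
Log2 fold changes of the 9 genes with standard errors in 3 comparisons (filled points, edgeR adjusted p under 0.05; red higher, blue lower, n = 4 libraries a group). Cfp alone is higher in brain CD11c cells than in ischemic microglia, 8 genes are higher in ischemic than in control microglia, and C3ar1 shows the widest gap between brain and spleen CD11c cells.

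Counted together, 1 member was higher in brain CD11c cells than in ischemic microglia (Cfp), 5 were lower (the C1q genes, C4b and C3ar1) and 3 did not pass. Over all 16345 genes tested, 38.8% were called in this comparison, 19.7% higher and 19.1% lower. With library totals in place of TMM, 62.4% of all calls were higher, against 50.7% with TMM, while the members stayed at 1 higher and 5 lower. The members' median log2 fold change was -0.68, beside 0.00 for all genes. Groups did not overlap for 6 members, beside 31.4% of all genes.

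Between ischemic and control microglia, 8 members were higher, none was lower, and Cfp did not pass. Of all genes 35.7% were called, 17.7% higher and 18% lower. The members' median was 0.80, beside -0.05 for all genes, and groups did not overlap for 8 members, beside 43.3% of all genes. For C1qc and C3ar1 the groups overlapped once library totals were used. With library totals 5 members were called, all higher, and leaving out 1 library gave 4 to 6, all higher. Library totals moved the all-gene median to -0.20 and the share of higher calls to 33.5%, against 49.5% with TMM.

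Between brain and spleen CD11c cells, 7 members were higher and none was lower, while C3 and Cfp did not pass. The call of Cfb held in 2 of 8 fits with 1 library left out and in 3 of 8 other settings, and limma-voom, no filter and the fit to the 2 groups alone gave 6 members. Of all genes 64.2% were called, 31.2% higher and 33% lower, so the number of calls alone sets the members little apart from the background. The members' median was 2.58, beside -0.04 for all genes, and groups did not overlap for 6 members, beside 55.2% of all genes. With library totals 6 members were higher and 1 was lower, the all-gene median moved to -0.30, and the share of higher calls moved to 34.9%, against 48.6% with TMM.

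The order of the group means can be read gene by gene, from 27 pairs of neighbouring groups, of which 19 differed by edgeR. Each C1q gene ran ischemic microglia, control microglia, brain CD11c, spleen CD11c, with all steps past the threshold. For C4b and C3ar1 the order was ischemic microglia, brain CD11c, control microglia, spleen CD11c, and the step between brain CD11c cells and control microglia did not pass (edgeR adjusted p = 0.95 and 0.684). C5ar1 had the same order, with no detectable step between ischemic microglia and brain CD11c cells and one near the threshold down to control microglia (edgeR adjusted p = 0.0491 for brain CD11c cells against control microglia). For C3 only the step down to control microglia passed, and for Cfp only the one between the CD11c groups and the microglial groups. Cfb ran ischemic microglia, brain CD11c, spleen CD11c, control microglia, and its first step did not pass.

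The comparisons that cross both the line and the tissue or state are given for completeness. Between brain CD11c cells and control microglia 4 members were higher (C3, Cfb, Cfp and C5ar1) and 3 lower (the C1q genes), where 58.9% of all genes were called, 29.3% higher and 29.6% lower. Groups did not overlap for 6 members, beside 48.8% of all genes. Between spleen CD11c cells and control microglia 3 were higher (C3, Cfb and Cfp) and 6 lower, where 68.8% of all genes were called, 37.1% higher and 31.7% lower, and groups did not overlap for 9 members, beside 71% of all genes. Between spleen CD11c cells and ischemic microglia Cfp was higher and 7 members lower, where 68.5% of all genes were called, 37.2% higher and 31.3% lower, and groups did not overlap for 8 members, beside 71.1% of all genes.

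Of 46 other genes of the pathway on a list chosen by role, with earlier results known, 28 passed the filter on low counts. The 18 others included the alternative route protease Cfd, which had 0 counts in every library. Whether its reads were assigned to it was not tested. Between brain CD11c cells and ischemic microglia 2 of the 28 were higher and 11 lower, where 19.7% of all genes were called higher and 19.1% lower. The filter used all 4 groups. In a fit to these 2 groups alone 23 genes of the list passed it, with 2 higher and 7 lower. That fit called 4654 of 14160 genes, 2517 of them higher. Of the 28 genes the higher ones were Cd93, a receptor once described as binding C1q, with 340.0 ± 219.8 CPM in brain CD11c cells and 17.4 ± 3.03 CPM in ischemic microglia, and Itgax. Itgax, the alpha chain of complement receptor 4, averaged 756 ± 208 and 77.2 ± 28.0 CPM, and its promoter drives the reporter used for the sort. The lower genes included Vsig4, a receptor for C3b and iC3b, with 0.631 ± 0.728 CPM in brain CD11c cells and 6.39 ± 2.83 CPM in ischemic microglia (log2 -3.33 ± 0.78, edgeR adjusted p = 0.00301). The classical route protease C2 (-2.13 ± 0.46), the ficolin Fcna (-1.95 ± 0.31) and the membrane regulator Cd55 (-2.62 ± 0.55) were also lower, and C2 shares 42.8% of its exon bases with Gm20547. Itgam, the alpha chain of complement receptor 3, averaged 467 CPM in brain CD11c cells and 990.2 CPM in ischemic microglia (-1.08 ± 0.17, edgeR adjusted p = 9.55e-05).

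Between ischemic and control microglia 7 of the 28 were higher and 4 lower (5 and 6 when scaled by library totals), where 35.7% of all genes were called, a share close to that of the list, with a median of 0.26 beside -0.05 for all genes. Vsig4 averaged 6.39 ± 2.83 CPM in ischemic microglia and 0.519 ± 0.279 CPM in control microglia, a log2 fold change of 3.62 ± 0.79 (edgeR adjusted p = 0.0022). Masp1, a protease gene of the lectin route, was higher by 1.85 ± 0.43 and Itgax by 1.34 ± 0.29, while C8g, a chain of C8, had 1.17 ± 0.336 against 0.561 ± 0.163 CPM. Itgb2, the beta chain shared by complement receptors 3 and 4, was higher by 0.68 ± 0.16 (edgeR adjusted p = 0.0038). The lower genes included the membrane regulator Cd46 (-1.33 ± 0.31), the soluble regulator Clu (-1.27 ± 0.40) and C5ar2 (-0.87 ± 0.13). C5ar2, the second receptor for C5a, thus fell where C5ar1 rose, with 38.8 ± 5.96 CPM in ischemic microglia and 71.1 ± 9.10 CPM in control microglia (edgeR adjusted p = 0.000127).

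Between brain and spleen CD11c cells 11 of the 28 were higher and 10 lower. Of all genes 31.2% were called higher and 33% lower here. Among 4 soluble regulators tested, Vtn, Serping1 and Clu were higher, the last 2 with overlapping groups, and Cpn1 did not pass. Among 5 membrane regulators Cd55, Cd46, Cd59a and Susd4 were lower, Susd4 with overlapping groups, and Cr1l, the most abundant of them in brain CD11c cells per kilobase of exon, did not pass at 77.0 CPM in brain and 73.7 CPM in spleen CD11c cells. Vtn, vitronectin, a soluble regulator, had 1.42 ± 1.97 CPM in brain CD11c cells against 0.0172 ± 0.0116 CPM in spleen CD11c cells. The receptor-like collectin Colec12 had 9.35 ± 6.15 against 0.523 ± 0.281 CPM, and Masp1 had 4.44 ± 2.61 against 0.00531 ± 0.0106 CPM. Cd93 averaged 340.0 ± 219.8 CPM in brain CD11c cells and 21.9 ± 5.90 CPM in spleen CD11c cells (3.95 ± 0.42, edgeR adjusted p = 8.45e-07). Cd55 averaged 0.226 ± 0.209 CPM in brain CD11c cells and 82.5 ± 10.5 CPM in spleen CD11c cells. The lower genes also included Cr2, complement receptor 2 of B cells and follicular dendritic cells, at 0.0146 ± 0.0169 against 386 ± 98.0 CPM, and C6, a gene of the terminal route, at 0.0913 ± 0.145 against 124.8 ± 52.4 CPM. The ficolin gene Fcnb was lower too, at 0.007 ± 0.014 against 2.34 ± 2.21 CPM. In the same libraries the 5 B-cell markers summed to 10.8 to 17.0 CPM in brain and 2229 to 2927 CPM in spleen CD11c cells, and the 7 neutrophil markers to 7.15 to 27.1 and 210 to 885 CPM. The part of B cells and neutrophils in these differences was not tested.

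**Figure D4:**
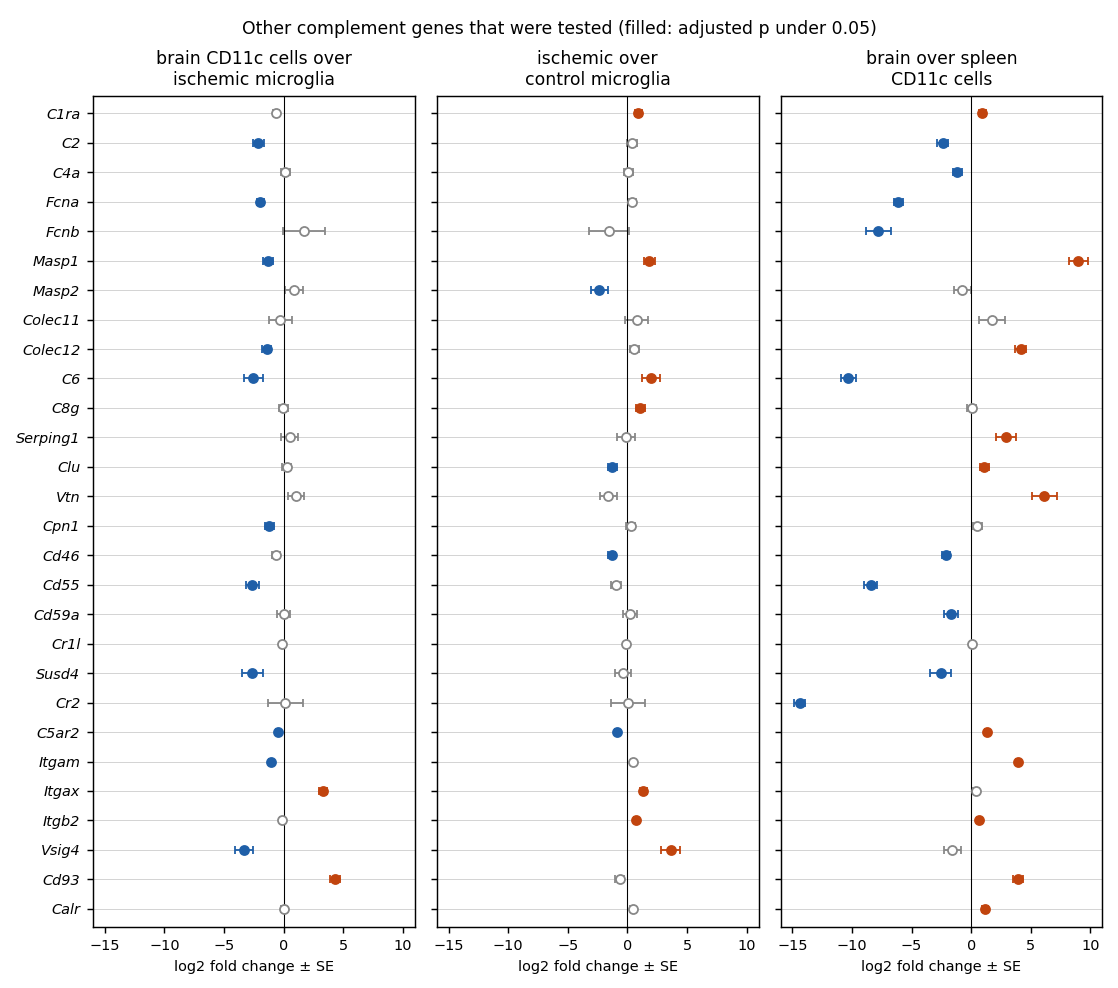
Log2 fold changes with standard errors of 28 other complement genes that passed the filter, in 3 comparisons (filled points, edgeR adjusted p under 0.05; red higher, blue lower, n = 4 libraries a group). Brain CD11c cells against ischemic microglia shows 2 higher and 11 lower genes, ischemic against control microglia 7 and 4, and brain against spleen CD11c cells 11 and 10.

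Genes outside the pathway with a profile most like each member were found by the root mean square difference of log2 CPM over the 16 libraries, after each gene was centred on its mean. The C1q genes were closest to each other, at 0.07 for C1qa and C1qc and for C1qa and C1qb. Outside the pathway they were closest to Tcn2, the vitamin B12 carrier transcobalamin 2, at 0.17 (C1qa), 0.14 (C1qb) and 0.18 (C1qc), and then to the Fc receptor gene Fcgr1 (C1qa 0.20, C1qb 0.16) or to Abhd12 (C1qc 0.20). C3 was closest to Zbp1, a sensor of nucleic acids, at 0.49, and to Fcgr4 at 0.51. C4b was closest to Gfap at 0.60 and to the protease gene Ctsl at 0.63, and C5ar1 to Rnf128 at 0.28 and to Ctsl at 0.36. C3ar1 was closest to the scavenger receptor gene Stab1 and to Eya4, both at 0.52. Cfp was closest to Gapt at 0.35 and to Lpcat4 at 0.43, and Cfb to the lipase gene Lpl at 0.46 and to Cmpk2 at 0.54. The nearest member to Cfp was C3 at 1.94, farther than for any other member. These distances describe these libraries, which share the group structure, and carry no test.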

How the data were processed

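RNA from 16 libraries of sorted mouse cells was measured by stranded poly(A) sequencing. Per the labels' protocols the input ranged between 2.4 ng and 147 ng of RNA. The authors deposited 1 table of raw counts per gene, with whole numbers and no normalization. The submitters' processing notes name STAR 2.5.3a, FastQC 0.11.5 and GRCm38. The counting tool was not given in the sources used here, nor were its use of strand and the gene annotation. Gene names came from GENCODE M21 (50376 of 50600 IDs matched). The members and lists were chosen with earlier results of these data known.

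From these counts, edgeR 4.0.16 (R 4.3.3) fitted quasi-likelihood models over all 16 libraries without covariates, after filterByExpr and TMM scaling, and p-values were adjusted by Benjamini-Hochberg over 16345 genes. A call is an adjusted p under 0.05. Standard errors are the log2 fold change divided by the root of F. The 95% intervals multiply this error by the value of the normal distribution. They ignore the limited degrees of freedom of the F test and are therefore too narrow, and calls rest on the p-values alone. Levels are TMM-scaled CPM, and levels of different genes were compared per kilobase of merged exons. Ratios between members were tested by exact permutation. Depth was 31569304 to 48245164 counts per library. All 9 members passed the filter. A pathway gene and a marker are not reported here and were left out of their lists. Other pathway genes are named where they were among the 4 largest called changes in a direction, with at least 1 CPM in either group. Itgam, Itgb2, Cfd, Serping1, Cpn1, Cd59a, Susd4 and Cr1l were added after their values were seen. Clu and Cd46 are also given for brain against spleen CD11c cells, where they fall outside this rule. Alternatives were other size factors, DESeq2 1.42.0, limma-voom 3.58.1, no filter, fits to 2 groups, omission of each library and subsets of brain CD11c libraries. The fit was also tested on simulated data in which few genes changed, and only in brain CD11c libraries. That simulation could not test the TMM scaling on data with as many changed genes as these.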

Additional observations from a re-analysis of the deposited data

Results flagged for a closer look

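In each group of 4 libraries, the gap between an extreme library and its neighbour was set against the group's range by Dixon's test for each member. Of 36 groups tested 2 passed, and chance flags about 1 in 20. C4b had 8.29 CPM in spleen CD11c replicate 4, with the other spleen libraries at 3.06 to 3.34 CPM. That library was also the highest spleen library for C3 and C5ar1. Cfp had 9.02 CPM in control microglia replicate 1, with the other control libraries at 21.7 to 24.1 CPM. C3ar1 was highest of the control libraries in the same replicate, at 820.2 CPM.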

How the results depend on the processing

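No paired analysis was possible because the replicate numbers were given in accession order and the titles of groups compared share at most 1 animal number within a mouse line. Of the recomputed fold changes of the members, 134 kept their direction and side of the threshold and 10 did not in brain CD11c cells against ischemic microglia, 94 did and 32 did not in ischemic against control microglia, and 128 did and 16 did not in brain against spleen CD11c cells. Between ischemic and control microglia 5 members were called with library totals and 4 to 6 with 1 library left out, against 8, and the wider list gave 7 to 10 calls with 1 library left out, against 11. With brain CD11c replicates 1 and 2 alone, and then 3 and 4 alone, the log2 difference of the C1qb to C1qa ratio between brain and spleen was 0.10 and -0.048, and that of the C5ar1 to C3ar1 ratio between brain CD11c cells and ischemic microglia was 0.38 and -0.025. The sign turned for C3 against ischemic microglia (-0.45) and against spleen (-0.048) and for Cfb against spleen (-0.019) with replicates 3 and 4, and for C5ar1 against ischemic microglia (0.050) with replicates 1 and 2. Cfp between ischemic and control microglia turned to -0.12 with library totals, and leaving out 1 library gave -0.22 to 0.13, including -0.05 and -0.01 without ischemic replicates 2 and 4. The cause of these shifts was not tested. Library totals moved 5 of 36 group levels by more than 1 SD. Cfb has few counts, which limits its precision.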
